A study of Mus musculus with 18 samples.

Results

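ATAC-seq, which marks exposed DNA through insertion of adapters by the Tn5 transposase, was used to list accessible sites in mouse bone marrow-derived macrophages (BMDMs), and the sites around 10 genes of the ETS family of transcription factors are described here. The genes were Spi1, which encodes PU.1, and Spib, Spic, Ets1, Ets2, Fli1, Elf1, Elf4, Etv3 and Etv6, taken from 21938 annotated protein-coding genes. They are a selection from the family, so comparisons with the 16 other protein-coding ETS genes describe this selection. The locus of each gene comprised the gene body and the 50 kb on either side of its most upstream annotated start site (GENCODE M21, mm10). Together the 10 loci held 215 of 82391 reference peaks, 140 of 59617 extended regions (reference peaks lengthened on both sides and joined where they met) and 221 of 84660 summits.

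The BMDMs came from wild type male C57/BL6 mice aged 6 to 8 weeks and had been grown from bone marrow precursors in culture. All cells, the untreated group included, received the vehicle DMSO for 1 h. The 18 libraries formed 9 groups of 2, namely 1 untreated group and 4 groups each for lipopolysaccharide (LPS), a bacterial ligand of TLR4, and for the cytokine IL-4, both at 10 ng/mL and sampled after 30 min, 1 h, 2 h and 4 h. The 3 deposited lists were merged over all libraries and carried no column for a single library, so LPS, IL-4, the time points and the replicates could not be compared at any ETS locus, and the depth behind each site is unknown. A start site peak, meaning a reference peak within 1000 bp of an annotated start site, was found for 8 of 8 macrophage markers, 0 of 4 T cell, 2 of 4 B cell (Ms4a1 and Pax5), 2 of 4 neutrophil (Camp and Ltf), 0 of 4 erythroid and 0 of 4 epithelial markers.

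ETS factors share a winged helix domain that binds DNA around the core GGAA, and the bases beside the core separate the subfamilies. PU.1 is required for the macrophage lineage, opens chromatin at macrophage enhancers and, together with IRF4 or IRF8, binds composite elements in which an ETS and an IRF site lie side by side. Its closest relatives are Spi-B, known from B cells and plasmacytoid dendritic cells, and Spi-C, known from the red pulp macrophages of the spleen. Ets1 acts mainly in lymphocytes, Ets2 is a target of Ras and MAP kinase signaling, and Fli1 is known from megakaryocytes and endothelium. Elf1 is widely expressed in blood cells, Elf4 acts in cytotoxic lymphocytes and in interferon induction, and Etv3 and Etv6 are repressors.

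Accessible regions were more numerous around most of these genes than around a typical protein-coding gene. Within 50 kb of the most upstream start site, the 10 genes had a median of 10.5 extended regions, against 4 over all protein-coding genes (quartiles 1 and 8) and 6.5 over 16 other ETS genes. The counts were 13 for Elf1 and for Etv6, 11 for Spi1, Ets1 and Etv3, 10 for Spib, 9 for Fli1, 8 for Spic, 7 for Ets2 and 6 for Elf4. Thus 7 of the 10 genes exceeded the upper quartile of all genes, and the lowest, Elf4, was still at the 62.1 percentile. In reference peaks, which are not joined, Spi1 led with 26 (98.4 percentile), followed by Etv6 with 22, Etv3 with 21, Fli1 with 18, Elf1 with 16 and Elf4 with 13. Spib and Ets1 each had 11 peaks, Ets2 had 10 and Spic 8. The order of the genes therefore changed with the unit, because the peaks of some genes (Spi1, Fli1, Elf4 and Etv3 among them) were joined into far fewer regions. The contrast with other genes also depended on the window. Within 20 kb, the median was 2.5 regions, against 2 for all genes, and the median percentile of the 10 genes fell from 88.3 to 58.9.

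**Figure D1:**
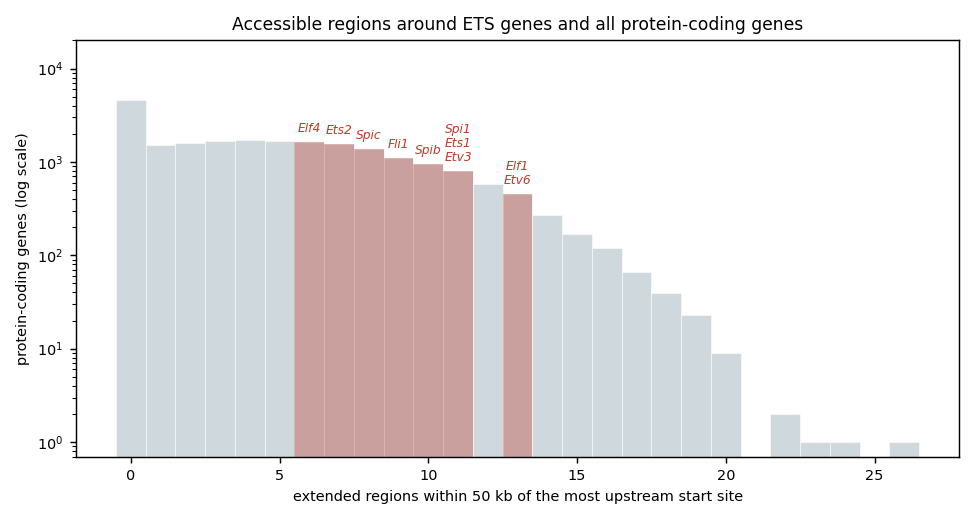
Number of extended regions within 50 kb of the most upstream start site (x axis) for all protein-coding genes (y axis, number of genes on a log scale), with the bins that hold the 10 ETS genes in red and labelled. The ETS genes lie between 6 and 13 regions, against a median of 4 over all genes.

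A start site peak was present at 10 of 10 of these genes, against 56.5% of all protein-coding genes and 11 of the 16 other ETS genes. The 5 without one were Ehf, Elf5, Etv2, Fev and Spdef. Ehf, Elf5 and Spdef are known from epithelia, Etv2 from the early endothelium and Fev from serotonergic neurons. A start site peak and many regions nearby did not always go together, since Etv2 had 10 regions within 50 kb and Spdef 9 (as did Elf2 and Etv5, which had a start site peak), whereas Elk3, with the most regions of the other ETS genes (15), had a start site peak with a score of 990. The score is the value listed with each summit. Its scale is not stated, so it is used only for ranks within the list, where it ran from 102 to 2781 with a median of 737.

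The best start site score set Spic, Fli1 and Spib apart from the other genes of the 10. Elf1 (1916), Ets1 (1903), Spi1 (1838), Elf4 (1747), Ets2 (1632), Etv3 (1505) and Etv6 (1505) all exceeded the median of 1456 over the 12402 genes with a start site peak. They ranged from the 53.5 percentile (Etv3 and Etv6) to the 82.9 percentile (Elf1). Only Elf1, Ets1 and Spi1 exceeded the upper quartile of 1799. Spic (467), Fli1 (411) and Spib (242) lay far below the lower quartile of 1071, at the 2.55, 1.59 and 0.149 percentiles. With 1 merged value per summit there is no spread over libraries, so neighbours in this order cannot be told apart by error. The low position of Fli1 rested on the 1000 bp limit, since with 2500 bp its best score was 1431.

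**Figure D2:**
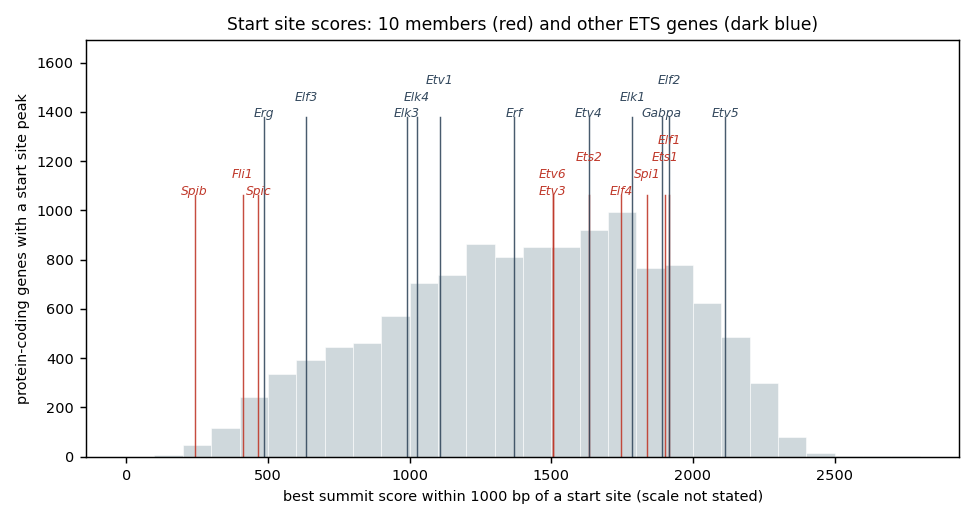
Best summit score within 1000 bp of a start site (x axis, scale not stated) for all protein-coding genes with a start site peak (y axis, number of genes), with the 10 ETS genes in red and the other ETS genes with such a peak in dark blue. Spib, Fli1 and Spic lie between 242 and 467, and the other 7 genes of the 10 between 1505 and 1916.

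Spi1 (ENSMUSG00000002111.8, chr2:91082390-91115756, forward strand) had the densest gene body of the set. Its 33367 bp held 15 reference peaks, or 4.50 per 10 kb, against a median of 0.462 over 10159 protein-coding genes of at least 20 kb (99.7 percentile). GENCODE annotates 4 start sites in 2 pairs 13706 bp apart. The downstream pair (91096096 and 91096780) shared 1 peak whose summit at 91096703 scored 1838. At the upstream pair, summits lay at -40 bp (score 1013) and at 699 bp (score 1799). Measured from the start site at 91096780, these lie at -14.4 and -13.7 kb. An enhancer well upstream of the Spi1 promoter is known to keep PU.1 levels high in myeloid cells, and whether it coincides with these summits was not tested. The upstream pair sat in a region of 5621 bp (chr2:91079987-91085607) with 5 peaks and 6 summits, followed directly by a region of 6153 bp (chr2:91085655-91091807) with another 5 peaks. Another region of 3949 bp over the downstream pair (chr2:91095858-91099806) held 4 peaks and 5 summits. In total 16 of the 29 summits of the Spi1 locus lay inside the gene. The best scored one over 1000 bp from any start site was intronic, 4142 bp into the gene (score 1683, 92.8 percentile of all summits). Measured from the start site at 91096780, it lies upstream, at -10.2 kb.

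The bases within 100 bp of this summit are shown because they hold the strongest accessible site of Spi1 away from its start sites. Capitals mark an NF-kB motif and an AP-1 motif. Neither the PU.1 motif GAGGAAGT nor the ETS-IRF composite was found in this window.
Spi1, chr2:91086432-91086632, forward strand: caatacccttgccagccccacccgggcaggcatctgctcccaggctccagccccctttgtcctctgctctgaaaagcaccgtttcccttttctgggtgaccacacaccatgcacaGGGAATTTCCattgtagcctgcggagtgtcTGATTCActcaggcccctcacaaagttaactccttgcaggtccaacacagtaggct

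The 2 closest relatives of PU.1 had low start site scores. Spib (chr7:44525993-44532071, reverse strand) had 12 summits in its locus. Inside its short gene body of 6079 bp lay 1 of them, a coding exon summit 3939 bp from the start (score 856), and 2 reference peaks overlapped the gene (3.29 per 10 kb). Its start site summit at -90 bp scored 242. The best summit of the locus, at -16828 bp with a score of 2048, lay at the start site of Pold1, which encodes the catalytic subunit of DNA polymerase delta. In all, 6 of the 12 summits lay at start sites of other protein-coding genes (Emc10 and Fam71e1, Pold1, Nr1h2 and Napsa). A further 2 lay at start sites of noncoding genes. Spic (chr10:88674772-88685015, reverse strand) had 9 summits. The single one in the gene was at 1913 bp, close to a downstream start site at 88683023, and scored 467, while the most upstream start site had no peak within 1000 bp. The other 8 summits lay upstream of the gene, the nearest at -23837 bp. This nearest one also had the best score (1332) and held AP-1, C/EBP and NF-kB motifs, and the farthest 2 (scores 1176 and 945) lay at the start site of Arl1.

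Fli1 (chr9:32422204-32542861, reverse strand) and Ets1 (chr9:32636221-32757820, forward strand) are neighbours that point away from each other, and 2 summits between them (scores 524 and 802) fell in both loci. In both genes the most upstream start site was not the most accessible position. At Ets1, the upstream start sites had a summit with a score of 282, whereas the start sites about 59801 bp downstream, which head 4 protein-coding transcripts, shared a peak with a score of 1903. The other summits inside Ets1 ranged from 421 to 1468, with the best at 80033 bp. At Fli1, the nearest peak was 1359 bp from the most upstream start site and scored 411. The intronic summits at 2658 and 3463 bp scored 1357 and 1431. Of the 25 summits of the Fli1 locus, 22 lay inside the gene, and its best distal summit lay at 67650 bp (score 1683) and held an AP-1 motif. A region of 3956 bp in its intron (chr9:32506826-32510781) joined 4 peaks beside the start sites of the noncoding genes Gm27201 and Gm38346. The gene body of Fli1 held 1.82 reference peaks per 10 kb (92.0 percentile), and that of Ets1 0.905 (71.7 percentile).

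Ets2 (chr16:95702075-95721051, forward strand) had 10 summits in its locus, the fewest of the 7 genes with a start site score above the median. Its start site scores were 1212 and 1632. Its best distal summit lay behind the gene, 26.9 kb from the start (score 1786), and held an NF-kB motif. The other distal summits of Ets2 scored between 242 and 889.

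Elf1 (chr14:79481194-79582494, forward strand) shares its most upstream start region with Wbp4, so the summits at -87 bp (score 1431) and 507 bp (score 1916) belong to both genes. A second start region, 34480 bp downstream, had a score of 856. Elf1 and Etv6 had the most regions within 50 kb, and their distal summits had median scores of 613 for Elf1 (highest 1296) and 675 for Etv6 (highest 1851). Elf4 (chrX:48411046-48463132, reverse strand) likewise had a pair of start regions, with scores of 1212 at the most upstream one and 1747 at the one 8963 bp downstream. Of its 13 summits, 12 lay inside the gene and the remaining one at -49 bp, and 9 distal summits clustered between 29437 and 39273 bp. The best, at 39273 bp, scored 1581. The Elf4 gene body had 2.50 peaks per 10 kb (97.0 percentile), against 1.78 for Elf1 (91.6 percentile).

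The repressor genes Etv3 and Etv6 had the same start site score of 1505 but differed in how many summits lay inside the gene. The locus rule shapes this contrast, since the gene body spans 14750 bp at Etv3 and 234459 bp at Etv6. At Etv3 (chr3:87525407-87540156, forward strand), 13 of 21 summits lay between -38204 and -4044 bp, outside the gene, with scores up to 1851. The best distal summit, at 40863 bp and likewise outside the gene, scored 1890 (96.7 percentile). Over the start site, a region of 5921 bp (chr3:87524693-87530613) joined 5 peaks, 3 of whose summits lay in an untranslated exon. At Etv6 (chr6:134035700-134270158, forward strand), which is the longest of the 10 genes with 234459 bp, 60 of 64 summits lay inside the gene. Its gene body held 2.52 peaks per 10 kb (97.0 percentile), a value close to that of Elf4. The best distal summit of Etv6 was nevertheless upstream, at -14631 bp (score 1851). In the introns, the highest scores were 1786 at 154273 bp, 1619 at 184937 bp and 1594 at 66898 bp. An annotated start site of a noncoding transcript at 211865 bp had a score of 1308.

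**Figure D3:**
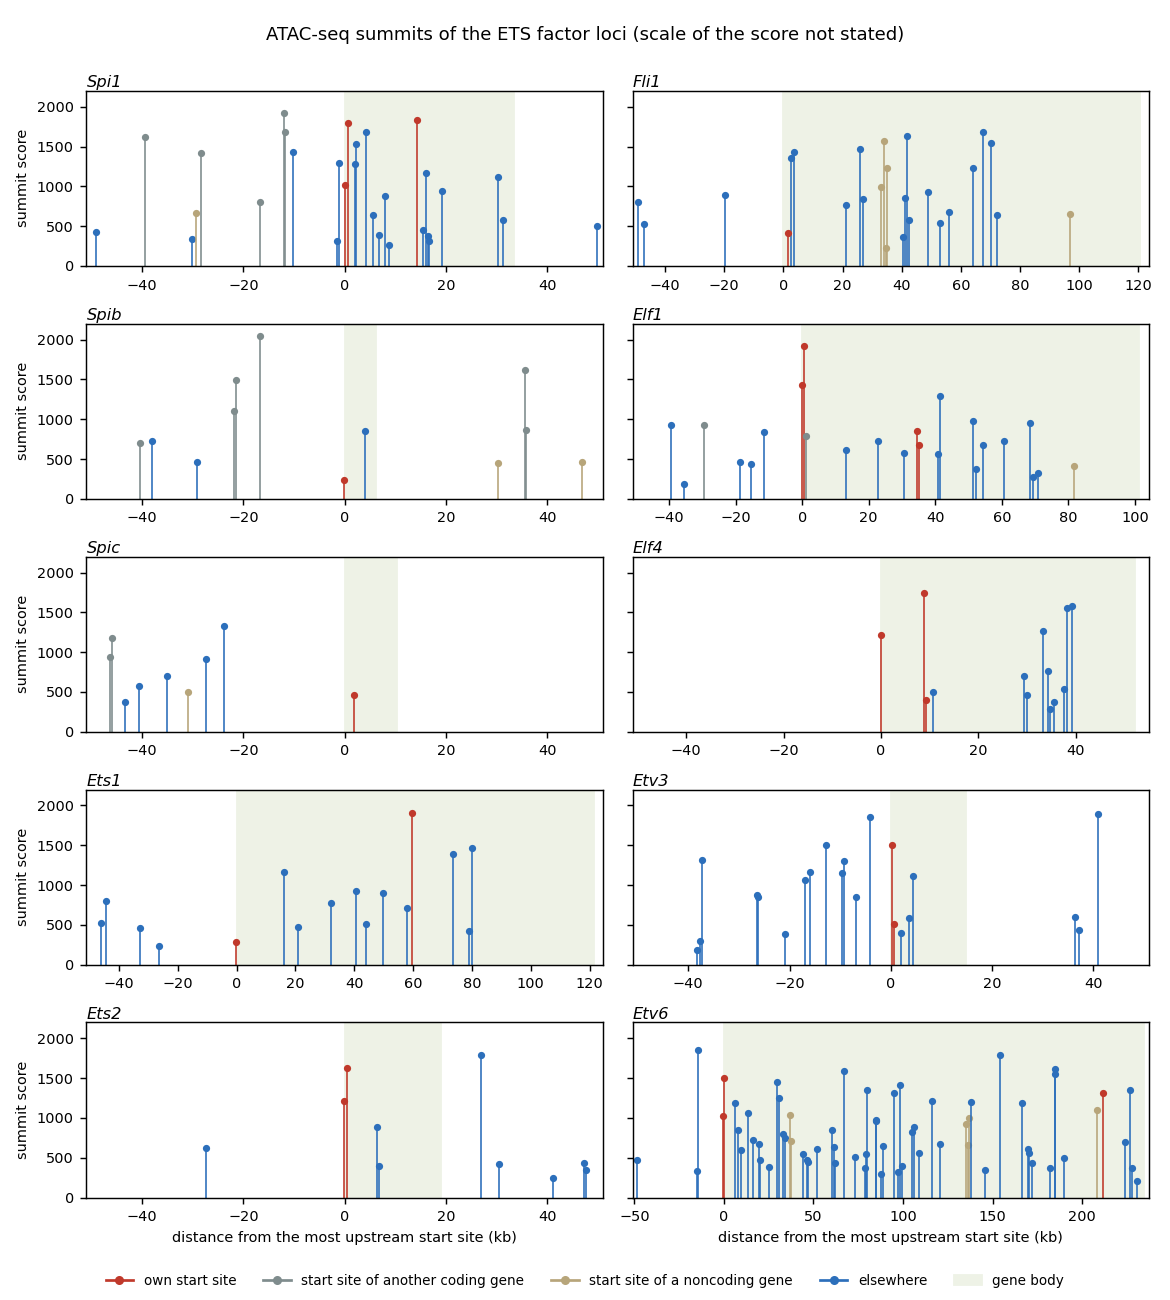
Summit score (y axis, scale not stated) against distance from the most upstream start site in kb (x axis, positive into the gene) for every summit of the 10 loci, 1 panel per gene with the gene body shaded. Red marks the gene's own start sites, grey and tan those of other coding and noncoding genes, and blue all other summits. The summits of Etv6, Fli1 and Elf4 lie mainly inside the gene (60 of 64, 22 of 25 and 12 of 13), and most of those of Spib, Spic and Etv3 outside it. The former genes span 52087 to 234459 bp and the latter 6079 to 14750 bp, so the locus rule gives the former more room inside the gene.

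Over all 10 loci, 168 of 221 summits (76.0%) lay over 1000 bp from any start site, against 70.7% of all summits. Introns held 115, positions outside the gene 48 (21.7%), the genes' own start sites 22 (9.95%), start sites of noncoding genes 16, start sites of other coding genes 15, untranslated exons 3 and coding exons 2. The median score was 769 (quartiles 467 and 1212), close to the 737 (quartiles 486 and 1153) of all summits. The distal summits had a median of 695 against 664. The scores at these loci were thus close to those of the whole list. Regions with 5 or more peaks made up 3 of the 140 regions (2.14%), against 1.11% of all regions, and belonged to Spi1 (2 regions) and Etv3 (1 region). At the limit of 50 kb, the outermost summits outside the gene bodies were those of Spi1 at 49849 bp (score 505) and -49171 bp (score 421). Those just outside were at -50404 bp of Elf4 (score 1480) and -50732 bp of Elf1 (score 332). The extended regions of these last summits reach within 50 kb, so they were counted among the regions of Elf4 and Elf1.

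Motifs of ETS factors and of the factors that act with them were searched as fixed letter patterns, some with free bases, up to 100 bp from each summit and on either strand. The PU.1 motif GAGGAAGT was found at 13 of 221 summits (5.88%, 95% Wilson interval 3.47 to 9.80), against 9.08% of all summits. The ETS-IRF composite (GGAA, then any 2 bases, then GAAA) was found at 13 (5.88%, interval 3.47 to 9.80), against 4.61%. The general ETS motif CCGGAAGT was at 4 (1.81%, against 1.57%). The overall share lay inside the interval for each of these, and the intervals cover counting error only. Thus no excess of PU.1 motifs was detectable in the genes of its own family at this number of summits, and the share was lower than that of all summits. Among distal summits the gap was wider, with 10 of 168 (5.95%) against 10.7% of all distal summits. No interval was computed for the distal share. The PU.1 motifs were unevenly distributed, with 6 of 25 summits at Fli1 (24.0%, interval 11.5 to 43.4), 4 of 64 at Etv6, 2 of 24 at Elf1 and 1 of 29 at Spi1. No match lay at a summit of the other 6 genes, which, with 9 to 21 summits each, allows shares of up to 15.5% (Etv3) to 29.9% (Spic) by the same interval. The composite was most frequent at Etv6, with 7 of 64 summits (10.9%, interval 5.40 to 20.9), and was present once each at Spi1, Ets1, Fli1, Elf1, Elf4 and Etv3. A weak PU.1 site with other letters is missed by this search.

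The 10 best scored summits with either motif are shown with 14 bases on each side, since they show where ETS motifs lie beside accessible sites of the ETS loci. Of the 10, 8 lie inside the gene and 2 upstream of it (Etv6 at -14631 bp and Etv3 at -9708 bp). The strand is the one on which the motif reads as printed. Capitals mark the motif, which is the composite in lines with GGAA at the start of the capitals and the PU.1 motif in lines with GAGGAAGT.
Etv6, chr6:134020962-134020999, forward strand, summit score 1851: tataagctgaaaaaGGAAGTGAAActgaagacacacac
Fli1, chr9:32501016-32501053, forward strand, summit score 1632: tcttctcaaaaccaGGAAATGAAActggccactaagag
Etv6, chr6:134220626-134220663, reverse strand, summit score 1619: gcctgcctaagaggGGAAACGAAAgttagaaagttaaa
Fli1, chr9:32508910-32508945, reverse strand, summit score 1568: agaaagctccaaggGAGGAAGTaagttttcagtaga
Fli1, chr9:32472557-32472592, forward strand, summit score 1543: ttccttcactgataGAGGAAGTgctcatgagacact
Fli1, chr9:32507779-32507814, forward strand, summit score 1224: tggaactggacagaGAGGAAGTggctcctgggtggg
Etv6, chr6:134152178-134152215, forward strand, summit score 1212: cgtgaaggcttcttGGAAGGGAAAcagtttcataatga
Ets1, chr9:32652426-32652463, forward strand, summit score 1164: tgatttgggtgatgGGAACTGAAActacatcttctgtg
Etv3, chr3:87515706-87515743, forward strand, summit score 1153: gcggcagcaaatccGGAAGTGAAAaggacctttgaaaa
Etv6, chr6:134120809-134120846, forward strand, summit score 979: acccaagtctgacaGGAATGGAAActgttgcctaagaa

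Of these 10 summits, 4 belonged to Etv6 and 4 to Fli1, and the Spi1 locus contributed none. The loci of Etv6, Fli1 and Spi1 held 64, 25 and 29 of the 221 summits, so these counts do not compare motif frequency between the genes. The strongest of the 10 summits, at -14.6 kb of Etv6, is also the best distal summit of that gene. Its composite lies 84 bp from the summit, outside the reference peak that holds the summit (chr6:134021005-134021162). At Fli1, the composite at 41816 bp lay 6 bp from a summit with a score of 1632, and 2 of the PU.1 sites lay in the region beside Gm27201. The single PU.1 motif of Spi1 was at a weak intronic summit (6835 bp, score 393), and its composite was at -1563 bp (score 315). At the start site of Fli1 itself (summit at 1442 bp, score 411) a PU.1 motif lay 43 bp from the summit.

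Of the motifs of other factors, AP-1 (TGANTCA) was at 35 summits (15.8%, interval 11.6 to 21.2, against 19.4% of all summits), RUNX (TGTGGTT) at 14 (6.33%, against 7.91%) and C/EBP (TTGCNNAA) at 24 (10.9%, against 11.4%). The IRF motif (GAAA, any 2 bases, GAAA) was at 9 (4.07%, against 3.64%) and the SP/KLF motif (GGGCGGGG) at 11 (4.98%, against 7.15%). The motif of STAT6 (TTC, any 4 bases, GAA), the factor activated by IL-4, was at 19 (8.60%, against 6.81%). NF-kB, which is activated by LPS, had its motif likewise at 19 (8.60%, interval 5.57 to 13.0). With all 221 summits and 100 bp, this was the only one of the 10 motifs whose overall share (5.55%) lay outside the interval, just below it. For subsets such as distal summits no interval was computed. Over the alternatives the contrast for NF-kB ranged from 10.7% against 5.75% (distal summits) to 7.02% against 5.29% (summits with a score of at least the list median). With 10 motifs examined and no test made, this is a description. By gene, the NF-kB motif was at 7 of 64 summits of Etv6, 3 of 21 of Etv3 and 1 of 25 of Fli1. It was at 2 of 29 of Spi1, 2 of 12 of Spib, 2 of 9 of Spic and 2 of 10 of Ets2. None was found at the 16 summits of Ets1, the 24 of Elf1 and the 13 of Elf4. With so few summits per gene, these counts do not separate the genes.

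**Figure D4:**
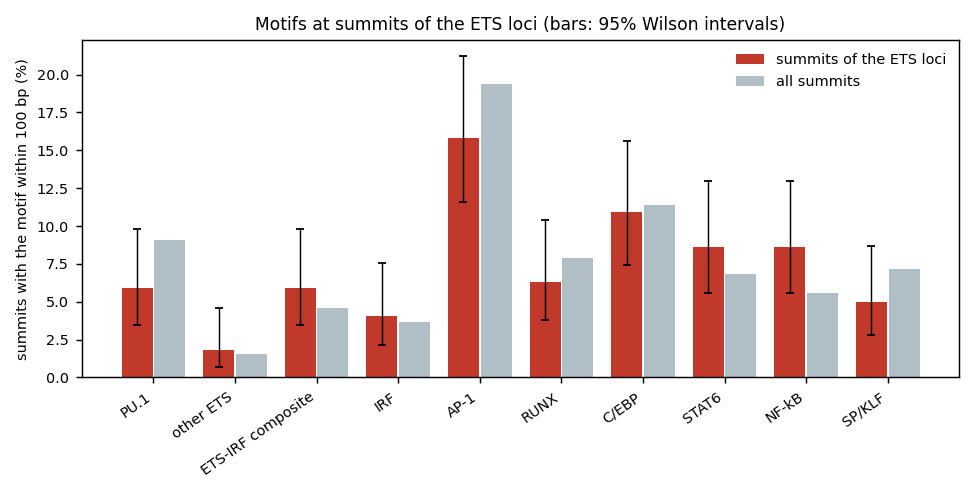
Share of summits with each motif within 100 bp (y axis, percent) for the 221 summits of the ETS loci (red, with 95% Wilson intervals) and for all 84660 summits (grey). The overall share lies inside the interval for 9 of the 10 motifs and just below it for NF-kB (5.55% against an interval from 5.57 to 13.0).

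RefSeq promoters (GRCm38.p6, 250 bases before to 50 after the start) were matched for 7 of the 10 genes (not for Spi1, Ets1 and Fli1). All 9 promoters of these 7 genes overlapped a reference peak, against 36.3% of all promoters in the table. The promoters differed in CpG dinucleotides, which are frequent in CpG island promoters. Spib (2 CpGs, 18.7 percentile of the 32851 promoters in the table) and Spic (3 CpGs, 27.3 percentile) were CpG-poor, while Etv6 had 17, Etv3 23 and Ets2 30. Where a gene had a pair of promoters, Elf1 had 43 CpGs at the first (score 1431) and 3 at the second (score 856), and Elf4 had 14 at the first (score 1212) and 29 at the second (score 1747). The part of CpG content in the scores was not tested. None of the 9 promoters held the PU.1 motif (3.20% of all promoters), the general ETS motif (3.89%) or the composite (2.72%). That of Spib held C/EBP (10.8% of all promoters) and NF-kB (4.51%) motifs, the second Elf1 promoter and the first Elf4 promoter an AP-1 motif (7.81%), the first Elf4 promoter also a STAT6 motif (6.95%), the second an SP/KLF motif (17.6%) and that of Etv6 an IRF motif (3.44%).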

How the data were processed

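Libraries had been sequenced by the authors as 76 base single-end reads, which were trimmed (BBDuk, Trimmomatic 0.39), mapped to mm10 with ShortStack and filtered with SAMtools 1.9. Peaks were called with MACS2 2.2.6 without local background and with duplicates kept, and overlap between replicates was required. No shift of reads to the Tn5 cut site is named, so summits may be offset from the insertion maximum, and PCR copies can add to a score. The deposited files were 3 BED lists, namely reference peaks, extended regions and summits, of which the summit list carries the authors' score on an unstated scale. None has values per library (0 columns), so depth and its precision are unknown and replicates could not be compared.

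Entries were counted at GENCODE M21 genes on GRCm38.p6 coordinates, which are those of mm10, counted from 1. An entry belonged to a locus if it overlapped it by 1 base. A summit within 1000 bp of a start site was assigned to it before any exon or intron. The NF-kB motif was searched with degenerate letters, and overlapping motifs were each counted. Of 17 other ETS genes listed, 16 are annotated as protein-coding. Regions of the alternatives were rebuilt by extending peaks by 700 bp. All counts and percentiles are descriptions without tests, since genes are not replicates. Scripts (Python 3.11.15, pandas 2.3.3, NumPy 2.4.6, SciPy 1.17.1) were tested on simulated data.

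The genes, the other ETS genes, the motifs and the markers were chosen with earlier results of these data known. The text names all 10 genes with their best start site and best distal summits, the other ETS genes lacking a start site peak or with the most regions, and other genes only where a summit lay at their start site. The window around the Spi1 start site summit reaches transcribed sequence and is not printed, and protein sequences were not used here. Alternatives were windows of 20 and 100 kb around genes, 500 and 2500 bp at start sites and 50 and 200 bp for motifs, counts of peaks or summits in place of regions, the most upstream start site alone, and subsets of summits that were distal, best in their region or at or above the median score.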

Additional observations from a re-analysis of the deposited data

How the results depend on the processing

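The median number of regions around the 10 genes moved to 2.5 within 20 kb (2 over all genes) and to 5.5 without summits below the median score (2 over all genes), and stayed within 1.5 times in 100 kb windows (14.5, against 9) and in peaks or summits (14.5 each, against 6). Their median percentile moved from 88.3 to 58.9 within 20 kb and to 74.9 within 100 kb, and was 84.0 with summits counted. A start site peak was found for 10 genes at 500 bp (54.9% of all genes) and at 2500 bp (59.9%), for 8 at the most upstream start site alone (52.1%, Spic and Fli1 without) and for 7 without summits below the median score (50.7%, Spib, Spic and Fli1 without). The other ETS genes with one numbered 9 of 16 at 500 bp and 11 at 2500 bp. The PU.1 share ranged from 4.07% to 7.69% over 5 alternatives and was below that of all summits in each, and the composite share ranged from 4.07% to 8.14% and was above it in each. The NF-kB share was likewise above that of all summits in each of these alternatives, and the AP-1 and RUNX shares were below it. The side changed for IRF at 50 bp (1.81% against 2.00%), at 200 bp (4.07% against 6.51%) and with the best summit of each region (3.65% against 3.73%). With that last setting it also changed for STAT6 (5.84% against 6.91%) and the general ETS motif (1.46% against 1.80%). It changed for SP/KLF at distal summits (2.98% against 1.85%) and for C/EBP without summits below the median score (11.4% against 11.2%). Of 40 motif shares other than those of PU.1 and the composite, 5 left the interval of the share within 100 bp, all with windows of 50 or 200 bp. The median summit score moved from 769 to 889 with the best summit of each region (823 over all summits). Of the counts of single genes, 31 of 50 alternatives moved by over 1.5 times. The cause was not tested. No paired analysis was possible because the lists carry no column per library. What depth limits could not be examined, since it is unknown for every library.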

Other observations

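Both PU.1 motifs of the Elf1 locus lay in repeat-masked introns, 8911 bp apart, and shared a run of 28 bases, in which capitals mark the motif: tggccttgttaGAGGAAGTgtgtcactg. This run occurred 159 times on the primary chromosomes and within 100 bp of 3 of 84660 summits, the Elf1 ones included. Of the 13 PU.1 motifs at the ETS loci, 3 lay in masked repeats, against 17.7% of the 8014 at all summits. Of the 13 composites, 1 did (at Ets1), against 29.7% of 4005.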
